A study of Rattus norvegicus with 2 samples.

Results

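Transcripts of the insulin-like growth factors (IGFs) and of the proteins that bind them were measured in the esophagus of rats dosed with OSU-HDAC42, an inhibitor of histone deacetylases (HDACs), and in the esophagus of rats dosed with vehicle. The family was taken as 9 genes, of 14217 genes measured: the ligands Igf1 and Igf2, the receptor Igf1r, and the binding proteins Igfbp2, Igfbp3, Igfbp4, Igfbp5, Igfbp6 and Igfbp7. Every probe set that the platform annotation ties to exactly 1 of these symbols was used, 21 probe sets in all of the 20826 with a single symbol. A probe set is a group of short probes on the array that read 1 transcript.

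Male Sprague-Dawley rats, an outbred laboratory strain, were 5 to 6 weeks old at purchase. The treated animals received 7 doses of 50 mg/kg OSU-HDAC42 by gavage, a total of 350 mg/kg, and the control animals received vehicle on the same schedule. The esophagi were collected 24 hours after dosing ended, on day 15, and their RNA was hybridised to Affymetrix Rat Genome 230 2.0 arrays. Each group had 1 array, and the labels do not say whether it held RNA of 1 rat or of several, nor which layers of the esophagus were taken. No value below therefore has an error between rats, and no test of the treatment was possible.

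IGF1 and IGF2 are secreted peptides that act through IGF1R, a tyrosine kinase at the cell surface that signals through insulin receptor substrates to PI3K and AKT. Circulating IGF1 comes mainly from the liver under growth hormone, while many tissues, skeletal muscle among them, also make IGFs locally. The binding proteins hold IGFs in the blood and the extracellular matrix and either withhold them from the receptor or deliver them to it, and proteases release the ligand by cutting them.

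The promoters of 4 members are shown, chosen as follows. Igf1r was higher on both of its probe sets in the OSU-HDAC42 sample, and Igfbp3 had the lowest difference of the members. Igfbp2 and Igfbp5 are neighbours on chromosome 9 whose brightest probe sets differed in opposite directions, though Igfbp2 by only 0.23 in log2. No other protein-coding gene starts between Igfbp2 and Igfbp5 in the RefSeq gene table. Each sequence is the RefSeq window from 250 bases before to 50 bases after a transcript start, on the strand of the gene, in the GRCr8 rat assembly. Capitals mark 3 motifs searched on both strands: the GC box GGGCGG, the binding motif of Sp1-type factors, the TATA box TATANA, and the E-box CACGTG, the motif of the clock activators and of MYC. The windows lie at chr1:130959747-130960046 (plus strand) for Igf1r, chr14:86277895-86278194 (minus strand) for Igfbp3, chr9:81864561-81864860 (plus strand) for Igfbp2 and chr9:81914138-81914437 (minus strand) for Igfbp5.
Igf1r: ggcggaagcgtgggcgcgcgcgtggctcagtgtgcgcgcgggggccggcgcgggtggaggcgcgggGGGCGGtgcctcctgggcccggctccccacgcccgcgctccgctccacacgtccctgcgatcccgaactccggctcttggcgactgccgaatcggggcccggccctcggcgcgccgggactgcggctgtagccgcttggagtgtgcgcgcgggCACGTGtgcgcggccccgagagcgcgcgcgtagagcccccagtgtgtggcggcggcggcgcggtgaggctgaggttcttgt
Igfbp3: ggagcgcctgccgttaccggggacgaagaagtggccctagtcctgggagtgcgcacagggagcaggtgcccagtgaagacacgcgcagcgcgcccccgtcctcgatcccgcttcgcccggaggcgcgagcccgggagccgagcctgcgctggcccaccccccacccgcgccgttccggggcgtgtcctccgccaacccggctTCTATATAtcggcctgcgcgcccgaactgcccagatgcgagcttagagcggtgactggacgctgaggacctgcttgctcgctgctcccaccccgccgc
Igfbp2: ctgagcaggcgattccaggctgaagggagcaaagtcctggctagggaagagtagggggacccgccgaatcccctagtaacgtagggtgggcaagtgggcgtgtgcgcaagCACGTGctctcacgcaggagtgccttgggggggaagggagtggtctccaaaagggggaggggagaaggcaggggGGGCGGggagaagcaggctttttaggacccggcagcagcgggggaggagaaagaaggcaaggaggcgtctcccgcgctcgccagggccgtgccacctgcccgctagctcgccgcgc
Igfbp5: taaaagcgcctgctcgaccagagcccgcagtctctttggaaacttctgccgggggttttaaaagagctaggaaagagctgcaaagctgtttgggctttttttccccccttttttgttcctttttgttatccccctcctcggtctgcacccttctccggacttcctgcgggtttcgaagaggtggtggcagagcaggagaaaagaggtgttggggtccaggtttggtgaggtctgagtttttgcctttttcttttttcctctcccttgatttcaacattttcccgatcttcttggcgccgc

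The Igf1r window had a GC content of 78.0% and held 1 GC box, 184 bases before the start, and 1 E-box, 31 bases before it. The Igfbp3 window, at 71.7% GC, held a TATA match in 2 overlapping positions, 48 and 46 bases before the start. Igfbp2 had 66.7% GC, with 1 GC box 66 bases and 1 E-box 140 bases before the start. Igfbp5 had 50.7% GC and none of these letters. Among all 33469 promoter windows of the same length the median GC content was 51.7%, and 33.1% held a GC box, 26.5% a TATA match and 6.42% the E-box. All 9 members had a window, Igf2 with 2 of them. Of the 9 genes, 4 held a GC box, with 4 boxes in Igfbp7, 1 in each of the 2 windows of Igf2 and 1 in each of Igf1r and Igfbp2. A TATA match was present in 2 genes, Igfbp3 and Igfbp4, and the E-box in 2, Igf1r and Igfbp2. Both genes with the E-box were higher on their brightest probe sets, while Igf1 and Igfbp6, also higher, held none of the 3 motifs. The other motifs were split on these probe sets. Of the genes with a TATA match, Igfbp3 stood at -0.91 and Igfbp4, below the expression floor, at 0.94 in log2 difference. Of those with a GC box, Igf1r (0.61) and Igfbp2 (0.23) were higher, Igf2 (-0.70) and Igfbp7 (-0.29) lower. So few genes tie no motif to a direction. A match of letters does not show binding.

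In the OSU-HDAC42 sample the receptor Igf1r was higher, as were the ligand Igf1 and the binding protein Igfbp6 on all of their probe sets. Igfbp3, Igfbp5 and the brightest probe set of Igf2 were lower. No member above the expression floor differed by 2-fold. On their brightest probe sets the members above the floor ran from -0.91 for Igfbp3 to 0.61 for Igf1r in log2 difference. The other probe set of Igfbp6, also above the floor, stood at 0.73. A difference is the log2 intensity of the OSU-HDAC42 sample less that of the vehicle sample, after intensities under 16 were raised to 16. The expression floor is an intensity of 49.1, the median probe set's mean over the arrays, and a gene counts as above it when its higher array reaches it. Of the 9 members, 8 passed the floor, all 8 on both arrays, and Igfbp4 did not.

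By the brightest probe set of each gene, 1 of the 8 members above the floor, Igf1r, was at least 1.5-fold higher, where 7.58% of the 9560 genes above the floor reached that size. At least 1.5-fold lower were 3 of the 8, namely Igfbp3, Igf2 and Igfbp5, where the background was 10.9%. Igf1r at 1.53-fold and Igfbp5 at 1.57-fold lie just past that size, and the next member short of it, Igfbp6, stood at 1.27-fold. When the probe sets above the floor were averaged instead, Igf1r stood at 0.56 and Igfbp5 at -0.30, both short of 1.5-fold. At 2-fold the count was 0 in both directions, against a background of 1.88% higher and 3.17% lower. Counted by probe set, 2 of the 13 that passed the floor reached 1.5-fold in the higher direction (background 8.27%) and 3 in the lower (background 9.88%). Over all 9 members the median difference was 0.15, with 5 higher and 4 lower by any amount, and the 5 include Igfbp4 from below the floor. Over all 14217 genes the median was 0, with 2323 of them set equal because both arrays were under 16. Among the genes above the floor the median was -0.03, with 46.7% higher and 52.8% lower. With so few members, these counts describe the genes and do not set the family apart from the rest of the array.

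**Figure D1:**
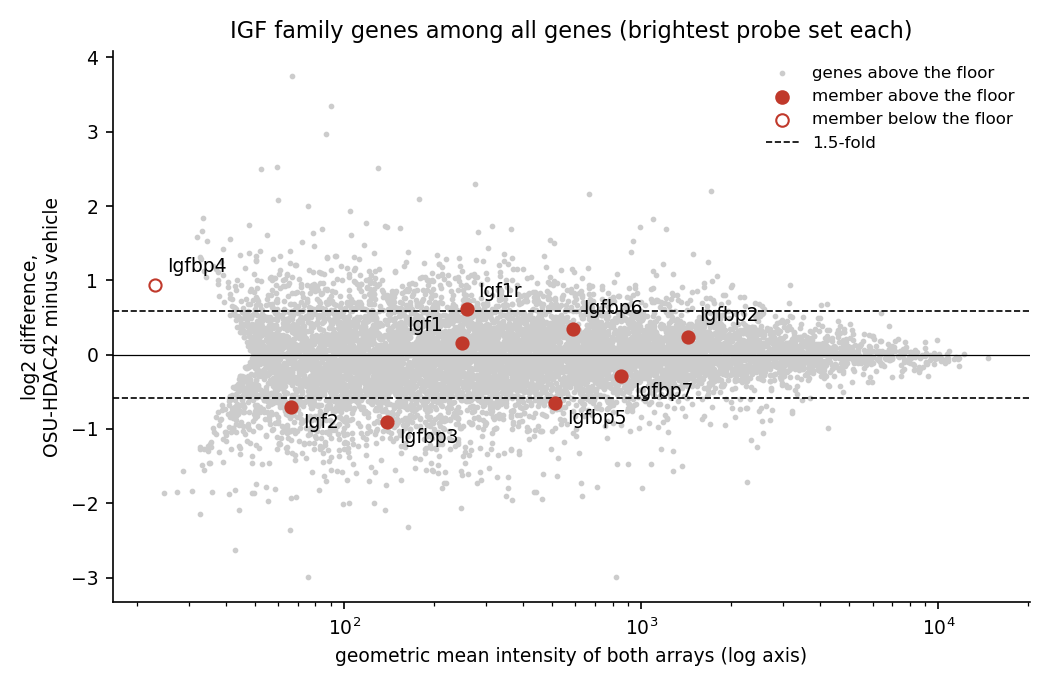
Log2 difference (OSU-HDAC42 minus vehicle) against the geometric mean intensity of both arrays (log axis), 1 point per gene by its brightest probe set. Grey points are genes above the expression floor, red points are the 9 IGF family members, open where below the floor, and dashed lines mark 1.5-fold; Igfbp3, Igf2 and Igfbp5 lie below the lower line and Igf1r on the upper one.

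Differences between the arrays widened towards dim genes. When the genes above the floor were divided into 5 equal classes by mean intensity, those in the dimmest class (up to 106), which holds Igf2, had differences with an SD of 0.64. In the next class (106 to 229), which holds Igfbp3, the SD was 0.53, and in that of Igf1 and Igf1r (229 to 487) it was 0.47. For Igfbp5, Igfbp6 and Igfbp7 (487 to 1219) it was 0.40, and in the brightest class, with Igfbp2, 0.28. These SDs run over genes and not over rats. Probe sets of the same gene, both above the floor, gave differences that lay apart with an SD of 0.41 over 3643 pairs. This probe spread holds any disagreement between probe sets of a gene, noise or not, and does not measure the spread between rats.

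Igf1, the growth hormone-driven ligand, was read by 3 probe sets. Its brightest, 1388469_at, read 262 in the OSU-HDAC42 sample and 236 in the vehicle sample, a difference of 0.15. The second, 1370333_a_at, stood at 204 against 144, a difference of 0.50. Both are above the floor and lie 0.35 apart, less than the probe spread of 0.41. The third, 1382599_at, stood at 43.3 against 16.5, a difference of 1.39, and stayed below the floor on both arrays. All 3 probe sets were higher in the OSU-HDAC42 sample, but they disagree on the size, from 1.11-fold to 2.63-fold.

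Igf2, the fetal growth factor that is expressed from the paternal copy, was read by 4 probe sets, of which 1 passed the floor. That probe set, 1367571_a_at, stood at 51.7 in the OSU-HDAC42 sample and 84.1 in the vehicle sample, 1.63-fold lower. The other 3 were dim and went the opposite way. For 1371206_a_at the intensities were 24.1 and 22.6, a difference of 0.09. The remaining pair, 1398322_at at 18.3 against 15.4 and 1388252_at at 17.6 against 12.8, were under 16 on the vehicle array, so that they were at least 1.14-fold and at least 1.10-fold higher. The lower level of Igf2 thus rests on 1 probe set near the floor, in the intensity class with the widest spread.

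Igf1r encodes the receptor through which both ligands act. Its brighter probe set, 1392492_at, stood at 321 in the OSU-HDAC42 sample and 210.3 in the vehicle sample, a difference of 0.61. The other, 1368123_at, gave 89.3 against 63.0, a difference of 0.50. The pair lay 0.11 apart, well inside the probe spread, and 92.9% of genes above the floor had a lower difference than the brighter one.

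**Figure D2:**
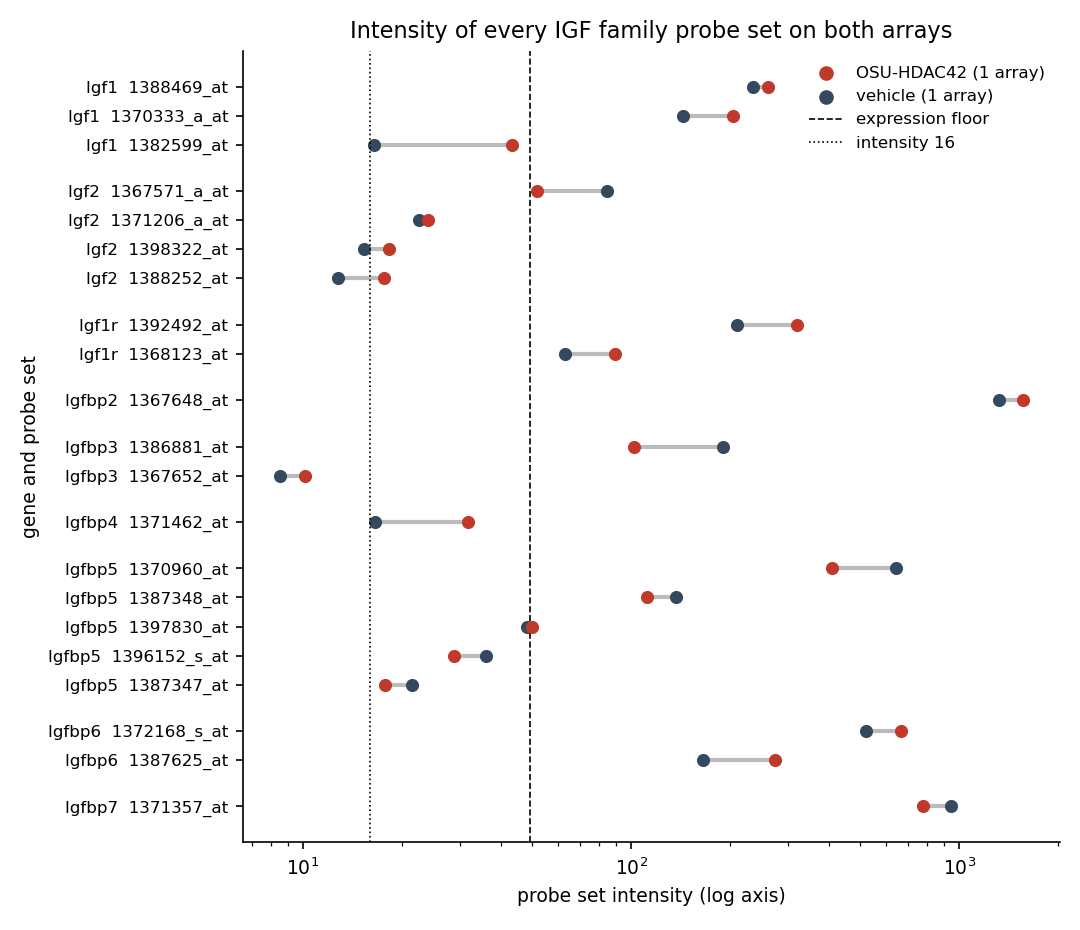
Intensity (log axis) of each of the 21 probe sets of the 9 genes, red for the OSU-HDAC42 array and dark blue for the vehicle array, joined by a grey bar. The dashed line is the expression floor of 49.1 and the dotted line the intensity of 16; both Igf1r and both Igfbp6 probe sets are higher in the OSU-HDAC42 sample, while only 1 of 4 Igf2 probe sets is above the floor.

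Among the binding proteins, Igfbp3, the main carrier of IGFs in the blood, was the member with the largest difference above the floor. Its probe set 1386881_at stood at 102 in the OSU-HDAC42 sample and 191 in the vehicle sample, 1.87-fold lower, and 4.22% of genes above the floor had a lower difference. Its second probe set, 1367652_at, was under 16 on both arrays (10.2 and 8.51) and gave no difference, so no other probe set bears on the value. Igfals, the acid-labile subunit that joins this carrier in the blood, was also under 16 on both arrays (11.2 and 14.6).

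Igfbp5, a binding protein that attaches to the extracellular matrix and is known from muscle and bone, had 5 probe sets, 4 of them lower. The brightest, 1370960_at, stood at 409 against 641, a difference of -0.65. For 1387348_at the intensities were 112 and 137, a difference of -0.30, and for 1397830_at, at the floor, 49.8 and 48.1, a difference of 0.05. Below the floor, 1396152_s_at differed by -0.33 and 1387347_at by -0.27. The direction was thus shared by 4 of 5 probe sets, while the 1.5-fold size was reached by the brightest alone, and the 3 probe sets at or above the floor spread over 0.70.

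Igfbp6, which binds IGF2 in preference to IGF1, was higher on both probe sets. The brighter, 1372168_s_at, gave 662 in the OSU-HDAC42 sample and 519.8 in the vehicle sample, a difference of 0.35. The other, 1387625_at, gave 275 against 166, 1.66-fold higher, and 95.3% of genes above the floor had a lower difference. The pair lay 0.38 apart. The suffix of the brighter one marks probes shared by several transcripts, and the plain suffix of the second does not.

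Igfbp2 and Igfbp7 were each read by a single probe set and differed little. Igfbp2, a binding protein that also contacts integrins, stood at 1561 against 1326, a difference of 0.23. Igfbp7, a relative that binds IGFs weakly and is known from the vessel wall, stood at 776 against 946, a difference of -0.29. Igfbp4, which restrains IGF action until the protease PAPP-A cuts it, stood at 31.9 against 16.6, a difference of 0.94, but both values are below the floor. Igfbp2 and its chromosomal neighbour Igfbp5 went in opposite directions on their brightest probe sets, 0.23 and -0.65.

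Around the family, 7 lists of other genes of the IGF axis held 99 genes, of which 90 were measured and 57 passed the floor. Of these 57, 31 were higher and 26 lower, where 46.7% and 52.8% of all genes above the floor were. Their median difference was 0.05, against -0.03 over those genes. At least 1.5-fold higher were 2 of the 57, Plag1 and Kazald1, and 1 was at least 1.5-fold lower, Adamts1, against the backgrounds of 7.58% and 10.9%. Both higher genes also passed 2-fold. On both arrays 53 of the 57 were above the floor; Kazald1 passed it only on the OSU-HDAC42 array, where it is high, and Esm1, Stc1 and Rptor only on the vehicle array.

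The other receptors were close to equal on their brightest probe sets. Igf2r, which clears IGF2 to the lysosome, stood at 312 against 326 (-0.06), and Insr, the insulin receptor, at 136 against 137 (-0.01). Their second probe sets differed by 0.55 and 0.38, so no direction can be given for either. Insrr was below the floor.

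Of 13 other binding proteins and relatives, 5 passed the floor, 3 higher and 2 lower. Kazald1, a secreted protein with an IGF-binding domain, stood at 96.6 against 38.5, 2.51-fold higher, with the vehicle value below the floor. Crim1, a membrane protein with an IGF-binding domain that tethers BMPs, and Htra1, a secreted serine protease, each differed by 0.31. Esm1, an endothelial proteoglycan, differed by -0.50. Igfbp1, the binding protein the liver secretes under fasting, was under 16 on both arrays.

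Among IGFBP proteases and their inhibitors 8 of 14 measured genes passed the floor, 5 higher and 3 lower. Adamts1, a protease of the extracellular matrix, stood at 155 against 277, 1.79-fold lower. The serine protease Htra3 differed by -0.45, Stc1, a stanniocalcin that inhibits PAPP-A, by -0.42, and the gelatinase Mmp2 by 0.40. Below the floor, the other probe sets of Htra3 differed by 0.53 and -0.11. For Stc1, 1 dim probe set differed by 0.05 and another was under 16 on both arrays. Pappa was not among the measured genes and Pappa2 was below the floor, so these IGFBP proteases could not be followed.

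Downstream of the receptor, 11 genes of the receptor adapter list passed the floor, 9 higher and 2 lower, none by 1.5-fold. The 11 include Sos1, Ptpn11 and Nedd4, so the list is wider than adapters alone. Across the array the corresponding shares were 46.7% higher and 52.8% lower. The list median was 0.15, set beside -0.03 over the 9560 genes that passed the floor. A list of this size is not set apart from the rest of the array by such counts. Shc1, an adapter that couples receptors to RAS, stood at 2178 against 1504 (0.53). Irs2, an insulin receptor substrate, stood at 706 against 530.3 (0.41), Grb2 at 1046 against 802 (0.38) and Crk at 2631 against 2130 (0.30). A second probe set of Grb2 differed by 0.37 and one of Crk by 0.36. The PI3K, AKT and mTOR cascade was divided, with 10 of 18 genes higher and 8 lower and a median of 0.05. Tsc1, which restrains mTOR, differed by -0.51, the mTORC1 subunit Rptor by -0.45, the mTORC2 subunit Rictor by 0.45 and the kinase Gsk3b by 0.33.

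Of the growth hormone axis 4 of 9 genes passed the floor, 2 higher and 2 lower, with the receptor's kinase Jak2 at 0.34, its feedback inhibitors Cish at -0.21 and Socs1 at 0.14, and the transcription factor Stat5a at -0.07. The growth hormone receptor Ghr was below the floor.

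In the list of Igf2 regulators and imprinted growth genes, 7 of the 9 that passed the floor were lower and 2 higher, with a median of -0.28. Among all genes above the floor 52.8% were lower and 46.7% higher, with a median of -0.03. Without the floor the list median was -0.08. So few genes do not set the list apart from the rest of the array. The cell cycle inhibitor Cdkn1c differed by -0.57, the imprinted gene Mest by -0.49 and the noncoding RNA Meg3 by -0.42. H19, the noncoding RNA that shares an imprinting control region with Igf2, stood at 5255 against 6779 (-0.37), and it is named beside the rule because it is the neighbour of Igf2. Plag1, a transcription factor known to activate the human IGF2 gene, went the other way, at 264 against 101, 2.62-fold higher. Its other probe set was under 16 on both arrays (15.2 and 8.88).

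**Figure D3:**
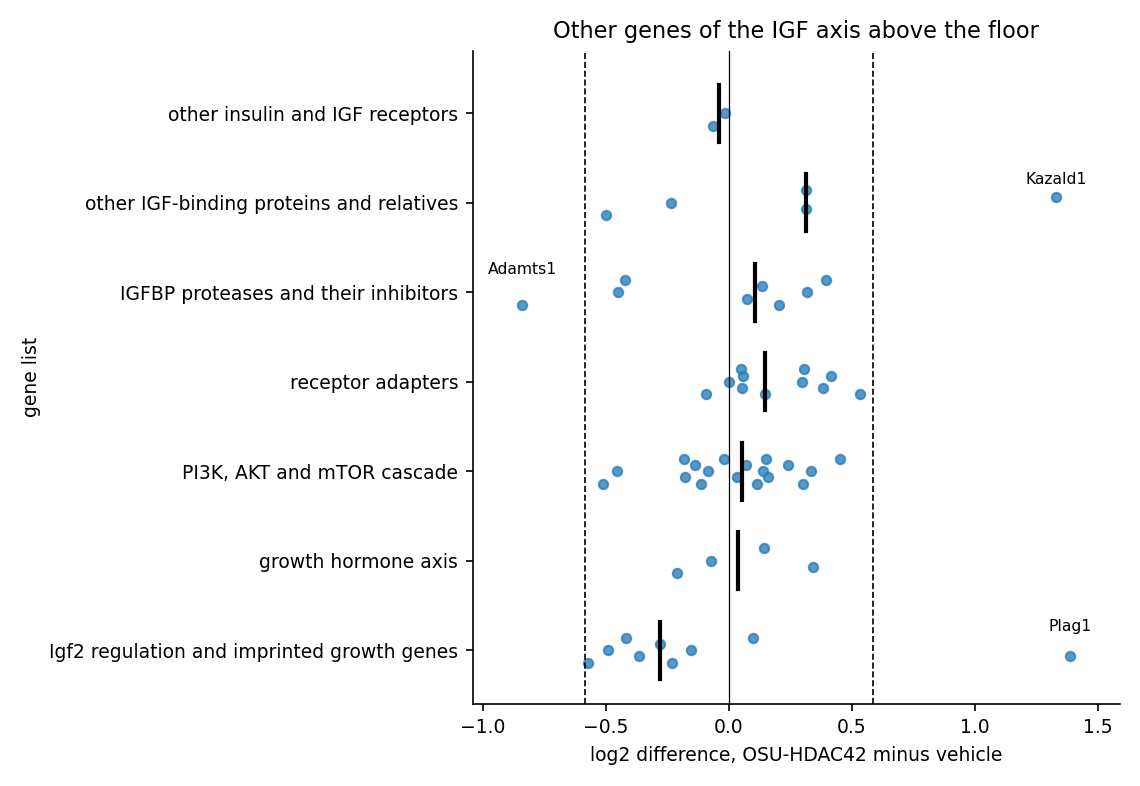
Log2 difference (OSU-HDAC42 minus vehicle) of each gene above the expression floor in the 7 lists of the IGF axis, 1 point per gene by its brightest probe set. Black bars are list medians and dashed lines mark 1.5-fold; of 57 genes only Kazald1, Plag1 and Adamts1 lie outside them.

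Markers of the labelled tissue were present: the squamous keratins Krt13 and Krt4 had intensities of 14438 and 11052 in the OSU-HDAC42 sample and 14947 and 11517 in the vehicle sample. Markers of several other cell types differed between the samples. All 11 measured skeletal muscle markers were lower (median -1.14), and their summed intensity was 11979.5 against 23172. All 10 smooth muscle markers were higher (median 0.62, sum 12212 against 7607). Of 8 macrophage markers 7 were higher (median 0.36, sum 1518 against 1057). Fibroblast and matrix markers were higher in 7 of 11 cases (median 0.06, sum 22005 against 18134), and endothelial markers lower in 6 of 9 (median -0.25, sum 3180 against 3204). Basal keratinocyte markers were lower in 7 of 8 cases (median -0.08, sum 33207 against 34405) and suprabasal ones in 8 of 10 (median -0.06, sum 64254 against 69479.5). Of 8 adipocyte markers 6 were below the floor, among them Adipoq, Plin1 and Lep, and the other 2, Fabp4 at -0.70 and Lpl at -0.25, were lower (list sum 378 against 462). All 5 measured neuron and Schwann cell markers were below the floor (sum 71.0 against 73.4). The part of these cell types in the differences of the IGF family was not tested, and in bulk tissue fewer cells of a type and less RNA per cell cannot be told apart. As a control of RNA quality, the intensity at the 3′ end was divided by that at the 5′ end. For beta-actin this ratio was 6.29 in the OSU-HDAC42 sample and 7.76 in the vehicle sample, and for GAPDH 2.09 and 2.32. The part of RNA quality was not tested either.

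**Figure D4:**
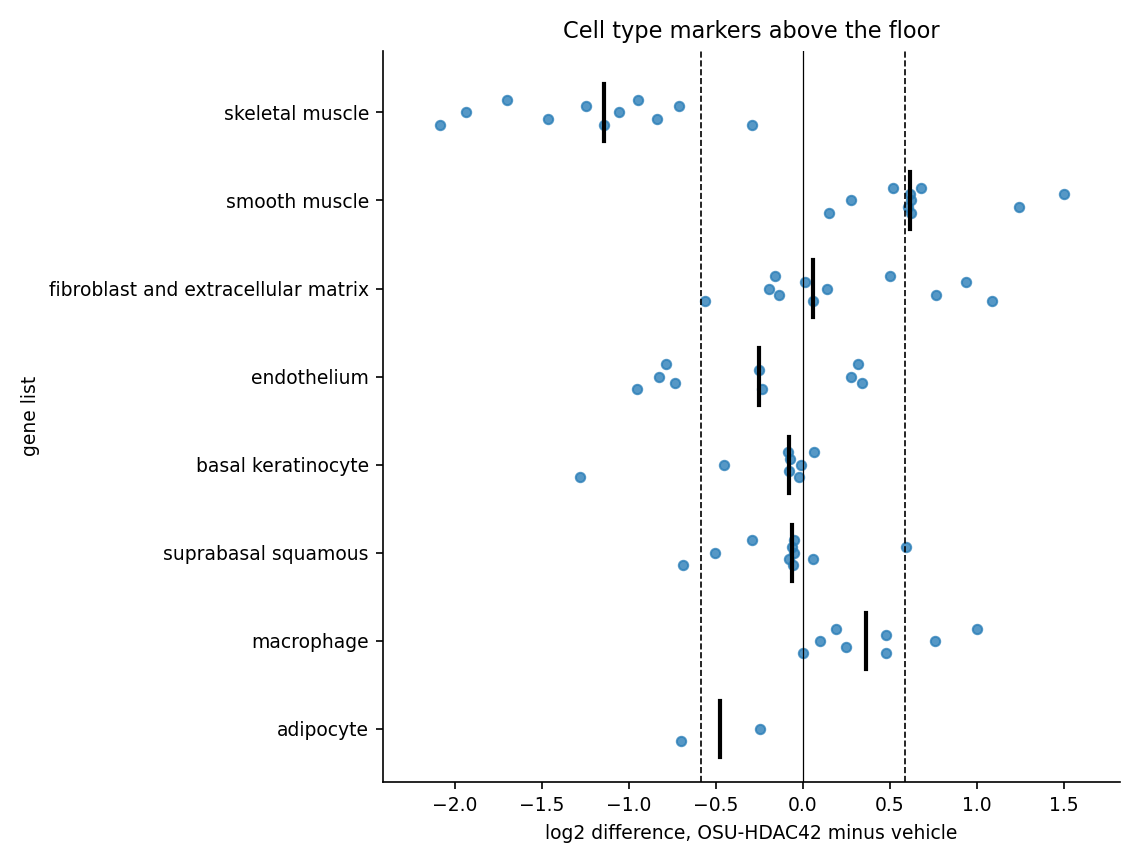
Log2 difference (OSU-HDAC42 minus vehicle) of cell type markers above the expression floor, 1 point per gene, with list medians as black bars and 1.5-fold as dashed lines. Skeletal muscle markers lie to the left (median -1.14) and smooth muscle and macrophage markers to the right (medians 0.62 and 0.36).

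The direction of each member was then followed across the ways of processing the values. Igf1r stayed between 0.56 and 0.63, Igfbp6 between 0.33 and 0.54 and Igf1 between 0.15 and 0.50. Igfbp7 ran from -0.32 to -0.26 and Igfbp2 from 0.19 to 0.26. Igfbp5 ran from -0.67 to -0.30 and Igfbp3 from -0.91 to -0.45, both lower throughout. Igf2 alone changed sign, from -0.70 to 0.12 when the median over its 4 probe sets was taken. Igfbp4 came out at 0 when values under 32 were raised to 32, since both of its intensities lie under 32.

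**Figure D5:**
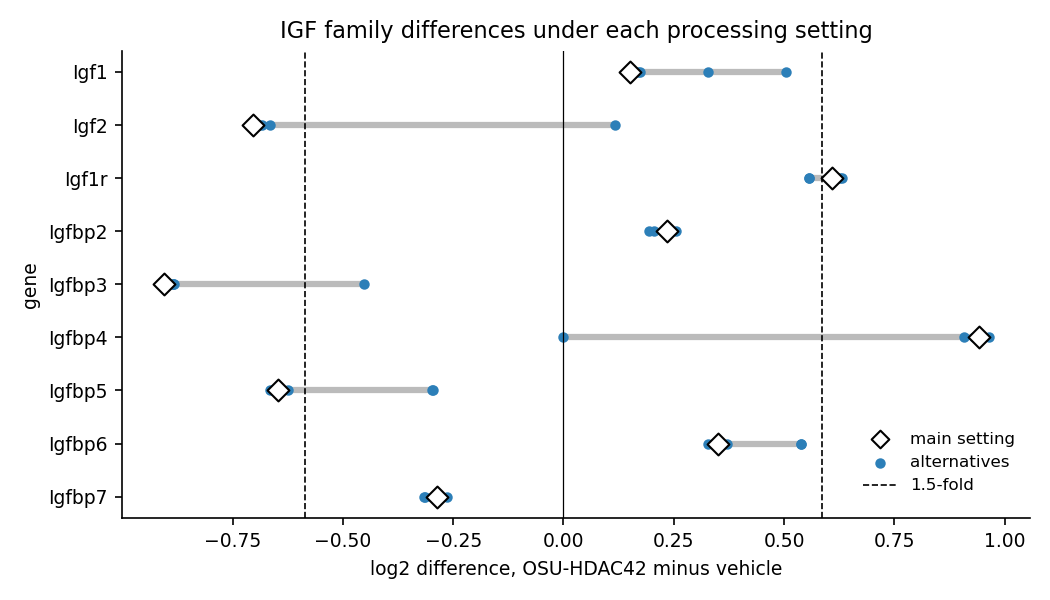
Log2 difference (OSU-HDAC42 minus vehicle) of each member in the main setting (open diamond) and in 7 alternatives (blue points), with the range as a grey bar and 1.5-fold as dashed lines. Igf2 crosses 0 in 1 alternative, Igfbp4 touches it in another, and the other 7 genes keep their side.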

How the data were processed

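The authors deposited 1 linear intensity per probe set and array, a unit read from the values. The submitters' processing notes name GCOS and RMA; their roles, their versions and the scaling between the arrays are not given in the sources used here. Median intensities were 48.4 (OSU-HDAC42) and 49.1 (vehicle). Intensities under 16 were raised to 16 (28.4% and 29.2% of probe sets) and log2 was taken, with no further normalization. The expression floor, these medians and these shares run over 31042 probe sets, with only 57 control probe sets left out. Values of genes also left out 436 probe sets with several symbols and 9780 without one. The brightest probe set stood for a gene. Counts used 1.5-fold and 2-fold sizes. Probe set suffixes were read by the maker's naming.

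With 1 array per group no test was made, and the number of arrays limits the precision. Members and lists were chosen with earlier results of these data known. The text names all members and, per list, the 4 genes above the floor with the largest differences; exceptions are stated or are genes below the floor or not measured. The calculation of differences was checked on simulated intensities with known differences. Python 3.11.15, pandas 2.3.3, numpy 2.4.6 and statsmodels 0.14.6 were used. Promoters are from RefSeq (GRCr8). Alternatives covered raised values, normalization, probe set choice and floor.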

Additional observations from a re-analysis of the deposited data

How the results depend on the processing

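Across the differences, medians and counts of members and the list medians, 161 values under alternatives kept within the probe spread or within 1.5 times of a count, 7 moved by more and 1, past 1.5-fold in the main setting, reversed. This tally is lenient. All 63 list median values counted as kept, yet no list median was larger than 0.31 in the main setting, under the probe spread of 0.41. Igf1 going from 0.15 to 0.50 counted as kept too. Some alternatives could not move a member: leaving values unraised changed none of the 9, and Igfbp2, Igfbp4 and Igfbp7 have 1 probe set each. Small list medians also changed sign: that of the other receptors from -0.04 to 0.21 with the mean or the median over probe sets, and that of the growth hormone axis from 0.03 to -0.21 with the floor at the 75th percentile. With the median over all probe sets of a gene, Igf2 reversed to 0.12, Igfbp3 moved to -0.45 and the counts at 1.5-fold went to 0 higher and 0 lower. For Igf2 and Igfbp3, probe sets below the floor then weigh as much as the bright one. Igf1r has both probe sets above the floor, and it stood at 0.56 with this median and with the mean over probe sets above the floor. Igfbp5 stood at -0.30 in both. With the mean over probe sets above the floor, 0 members were 1.5-fold higher. Without an expression floor 2 were higher, Igf1r and Igfbp4, and with the floor at the 75th percentile 1 was lower, by construction. Raising values under 32 to 32 brought Igfbp4 to 0. The 2-fold counts were 0 under all alternatives. Centring, quantile normalization and removal of the lowess trend left the share of higher genes among those past 1.5-fold between 41.2% and 44.7%, against 41.0%. No paired analysis was possible because the design has 1 array per group. Low intensity limits Igf2, Igfbp4 and 8 of the 21 probe sets.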
